A study of Mus musculus with 4 samples.

Results

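Rod photoreceptors and the remaining cells of the mouse retina were compared at postnatal day 12 (P12), with 1 library of poly(A) RNA for each fraction. Dissociated retinal cells of wild-type mice (strain background slc:ICR, as for all libraries) had been stained with an antibody against Cd73 and sorted into a positive fraction (Cd73P) and a negative one (Cd73N). Cd73 is the surface ecto-nucleotidase encoded by Nt5e, and it marks rods and their precursors. The wild-type mice were normal littermates of retina-specific Ezh2 conditional knockouts (Ezh2-cKO), in which Dkk3-Cre, active in retinal progenitor cells, acts on a floxed Ezh2. The same fractions of Ezh2-cKO retina gave the other 2 of the 4 libraries of the series. The number of retinas behind a P12 library, and whether they were pooled, was not given in the sources used here. A gene row was a member of the comparison where Cufflinks gave it the status OK in both wild-type libraries and its level was at least 10 FPKM in 1 of the 2. FPKM is the number of fragments of a gene for a given length of exon and a given number of mapped fragments, so that levels of genes can be compared with each other. This held for 7306 of 23021 rows (31.7%). Of these, 4707 reached 10 FPKM in both libraries, 848 in Cd73P alone and 1751 in Cd73N alone. Around the limit, 351 rows had a higher value between 10 and 11 FPKM, and 375 rows had one between 9 and 10 and stayed outside.

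Rods detect dim light in a stack of membrane discs, the outer segment, which is a modified primary cilium joined to the cell body by a connecting cilium. In the disc, the light-activated visual pigment switches on the G protein transducin, which switches on a cGMP phosphodiesterase, and the fall in cGMP closes cation channels in the plasma membrane. Cones use a parallel set of proteins encoded by related genes. The other cells of the retina are interneurons (bipolar, amacrine and horizontal cells), ganglion cells, Müller glia, and cells of vessels and blood.

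The genes that define the label differed in the labelled direction. Nt5e (chr9:88222447-88266927, mm9, plus strand) was at 0.844 FPKM in Cd73N and 125 FPKM in Cd73P, a log2 ratio of 6.10 ± 0.06. Nrl, the leucine zipper factor that specifies rods (chr14:56137815-56143802, minus strand), was at 27.7 and 1377 FPKM, a log2 ratio of 5.58 ± 0.04. Nr2e3, a nuclear receptor that represses cone genes in rods (chr9:59790578-59797886, minus strand), was at 16.8 and 1392 FPKM, a log2 ratio of 6.29 ± 0.05. Pde6b, a catalytic subunit of the rod phosphodiesterase (chr5:108817392-108860761, plus strand), was at 8.28 and 650 FPKM, a log2 ratio of 6.13 ± 0.05. All 4 genes were therefore far higher in Cd73P, and their levels in Cd73N were 0.673% to 2.01% of those in Cd73P. Here and below a log2 ratio is log2((Cd73P FPKM + 1) / (Cd73N FPKM + 1)), positive where Cd73P was higher. The error is a standard error (SE) taken from the bounds deposited with each FPKM and covers counting error only. With 1 library for each fraction no difference could be checked against replicates, and no p-values are given. The bounds themselves are an imperfect guide, because FPKM lay outside its own bounds in 42.0% of member rows in Cd73N and 35.3% in Cd73P.

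Most members were lower in Cd73P. The median log2 ratio was -0.48, with quartiles of -1.15 and 0.25, and ratios below are best read against that median. At a threshold of 1.5-fold, 1264 members (17.3%) were higher in Cd73P and 3363 (46%) higher in Cd73N. At 4-fold, 326 members (4.46%) were higher in Cd73P and 1008 (13.8%) higher in Cd73N. Without the 170 members that have a small RNA symbol, the counts at 4-fold were 277 and 978. The imbalance at 1.5-fold depended on scaling: where the median ratio was set to 0, 2109 members were higher in Cd73P and 1994 in Cd73N, and where both libraries were set to the same FPKM sum the counts were 1861 and 2310. A member that reached 10 FPKM in 1 library alone was higher there by construction. For lists made mostly of such members, the median or the counts over all listed rows of status OK are given below as well. The Cd73P transcriptome was the more concentrated of the 2, with 7.70% of its FPKM sum in its 10 highest genes against 3.92% in Cd73N. In bulk fractions, fewer cells of a type and less RNA per cell cannot be told apart. The plot of both fractions shows the main groups.

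**Figure D1:**
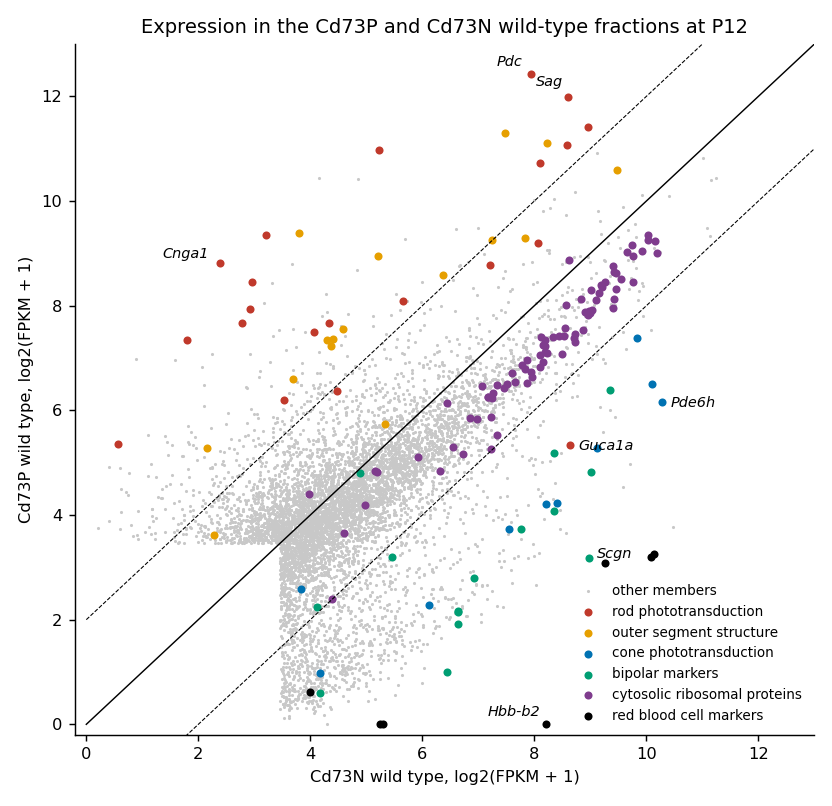
Level of each member outside the small RNA symbols in Cd73N (x axis) and Cd73P (y axis), as log2(FPKM + 1), with 1 point for each row and colours for 6 gene lists. The solid line marks equal values and the dashed lines 4-fold differences. Rod phototransduction genes lie above the upper dashed line for 17 of 21 rows, cone phototransduction genes below the lower one for 9 of 10, and the cytosolic ribosomal proteins form a narrow band below the solid line.

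Outside small RNA symbols and symbols on several rows, the 12 largest ratios toward Cd73P were those of Cnga1, Nr2e3, Pde6b, Nt5e, Gnat1, Rp1, Nrl, Slc24a1, Pde6a, Esrrb, Reep6 and Trib1. Most of these are genes of the light response or of rod identity. Esrrb, an orphan nuclear receptor, was at 1.98 FPKM in Cd73N and 124 in Cd73P. Reep6, which encodes a shaping protein of the endoplasmic reticulum, was at 11.7 and 445 FPKM. Trib1, which encodes a Tribbles pseudokinase, was at 8.96 and 343 FPKM. The 12 largest ratios toward Cd73N were those of Hbb-b2, Beta-s, Hbb-b1, Scgn, Vsx1, Gsg1, Lhx3, Rgs5, Sulf2, Tmem215, Nnat and Kcng4. They combined haemoglobin genes, genes of bipolar cells and a pericyte gene, Rgs5. Scgn, the calcium-binding protein secretagogin, was at 501 FPKM in Cd73N and 8.11 in Cd73P. Nnat, an imprinted gene of neural and endocrine cells, was at 766 and 22.1 FPKM. Hbb-b1 and Hbb-b2 are listed at overlapping positions and share most of their sequence, so the split of reads between them is uncertain, and the log2 ratio of -8.21 for Hbb-b2 rests on 295 FPKM in Cd73N against 0.000832 in Cd73P.

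Of the 22 genes listed for rod phototransduction, 20 were members, on 21 rows. They had a median log2 ratio of 3.39, with 20 rows higher in Cd73P at 1.5-fold and 1 higher in Cd73N. Gnb1, the transducin beta subunit, gave no ratio, since it was at 99.9 FPKM in Cd73N and its estimate failed in Cd73P. It is 1 of 50 rows at 10 FPKM or more in a wild-type library that were left out for their status, most of them (34) for low data in both libraries.

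Along the cascade, the transducin alpha subunit Gnat1 was at 36.2 FPKM in Cd73N and 2016 in Cd73P, and the gamma subunit Gngt1 at 272 and 1700. The 2 catalytic phosphodiesterase subunits were close in ratio, with Pde6a at 6.81 and 348 FPKM beside Pde6b, whereas the inhibitory subunit Pde6g was at 495 and 2736. The cGMP-gated channel subunit Cnga1 (chr5:72994936-73033991, minus strand) was at 4.25 and 450 FPKM, the largest ratio among these genes at 6.42 ± 0.07. The second channel subunit, Cngb1, is split over 2 rows with log2 ratios of 4.89 and 5.02. Slc24a1, the exchanger that removes calcium from the outer segment, was at 2.49 and 162 FPKM. Thus the channel, exchanger and catalytic subunits had little signal outside Cd73P, with the Cd73N level of Cnga1 at 0.945% of its Cd73P level. Gngt1 and Pde6g kept more signal in Cd73N, at 16.0% and 18.1% of their Cd73P levels.

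Proteins that shut off or regulate the response had intermediate ratios. Sag, the rod arrestin, was at 389 FPKM in Cd73N and 4081 in Cd73P. Pdc, phosducin, which binds transducin beta and gamma subunits, had the highest level in Cd73P outside small RNA symbols, 5501 FPKM against 244 in Cd73N. Rcvrn, the calcium sensor recoverin that restrains the receptor kinase of rods, was at 384 and 2135 FPKM, and the gene of that kinase, Grk1, at 19.2 and 202. Toward the low end stood Rgs9, Rgs9bp and Gnb5, which form the complex that speeds transducin shut-off, with log2 ratios of 2.42, 1.89 and 1.58. The lowest positive ratio was that of Aipl1, a chaperone for phosphodiesterase, at 265 and 585 FPKM. Recovery genes split. The guanylate cyclase genes Gucy2f (0.478 and 40.1 FPKM) and Gucy2e (10.5 and 72.6 FPKM) were higher in Cd73P, as was the cyclase activator Guca1b (15.8 and 181 FPKM). Its neighbour Guca1a, which encodes the other cyclase activator of photoreceptors, went the other way, at 398 FPKM in Cd73N and 39.4 in Cd73P, a log2 ratio of -3.31 ± 0.05. Between the libraries labelled Ezh2-cKO, Guca1a was also higher in Cd73N, at 520.3 against 70.3 FPKM. It was the only row of the list on the Cd73N side.

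The stretches upstream of 6 genes high in Cd73P and 1 high in Cd73N are printed here so that the letters they share can be seen. Of the 6, Cnga1, Samd7, Gucy2f, Sag and Gngt1 were chosen from the genes with a match to TAATCC, so they do not show how common it is. They are the 250 bases before the annotated start, from the RefSeq promoter table of build GRCm38.p6, not of the mm9 build of the expression files. Capitals mark every match, on either strand, to TAATCC (the core bound by Crx and Otx2; GGATTA on the other strand), to TGCTGA (a half-site of Nrl and other Maf factors) or to AAGGTCA (a half-site of Esrrb; TGACCTT on the other strand). The order is Cnga1 (chr5:72642753-72643002, minus strand), Samd7 (chr3:30746043-30746292, plus), Gucy2f (chrX:142196937-142197186, minus), Sag (chr1:87803430-87803679, plus), Gngt1 (chr6:3993758-3994007, plus), Pde6b (chr5:108388123-108388372, plus) and, as a cone gene for contrast, Gnat2 (chr3:108092816-108093065, plus).
Cnga1: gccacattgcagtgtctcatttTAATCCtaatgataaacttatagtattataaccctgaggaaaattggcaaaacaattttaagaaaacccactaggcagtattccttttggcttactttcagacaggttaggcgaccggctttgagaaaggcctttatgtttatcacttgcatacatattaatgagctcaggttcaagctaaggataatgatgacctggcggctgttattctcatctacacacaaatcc
Samd7: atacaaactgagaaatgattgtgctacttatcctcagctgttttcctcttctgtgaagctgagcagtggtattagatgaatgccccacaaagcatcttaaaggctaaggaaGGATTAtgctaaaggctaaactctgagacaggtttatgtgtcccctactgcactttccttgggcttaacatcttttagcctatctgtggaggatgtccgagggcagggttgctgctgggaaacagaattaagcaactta
Gucy2f: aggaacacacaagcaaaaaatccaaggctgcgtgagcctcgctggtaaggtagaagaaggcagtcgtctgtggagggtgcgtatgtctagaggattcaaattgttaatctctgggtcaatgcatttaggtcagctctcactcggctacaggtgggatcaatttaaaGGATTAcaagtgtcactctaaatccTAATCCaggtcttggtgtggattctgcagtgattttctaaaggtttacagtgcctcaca
Sag: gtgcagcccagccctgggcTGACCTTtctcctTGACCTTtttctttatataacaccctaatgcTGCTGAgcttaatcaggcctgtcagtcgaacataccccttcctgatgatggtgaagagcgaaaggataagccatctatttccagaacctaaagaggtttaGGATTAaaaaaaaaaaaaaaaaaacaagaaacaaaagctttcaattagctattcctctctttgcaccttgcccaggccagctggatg
Gngt1: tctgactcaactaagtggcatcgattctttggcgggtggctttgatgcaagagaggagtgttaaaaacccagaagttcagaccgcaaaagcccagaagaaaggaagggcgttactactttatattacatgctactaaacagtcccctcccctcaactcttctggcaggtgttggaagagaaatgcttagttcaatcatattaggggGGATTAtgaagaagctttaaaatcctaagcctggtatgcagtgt
Pde6b: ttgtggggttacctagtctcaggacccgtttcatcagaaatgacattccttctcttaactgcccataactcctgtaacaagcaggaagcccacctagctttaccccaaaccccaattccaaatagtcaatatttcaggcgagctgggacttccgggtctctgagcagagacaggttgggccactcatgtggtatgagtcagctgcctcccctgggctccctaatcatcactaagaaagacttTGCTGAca
Gnat2: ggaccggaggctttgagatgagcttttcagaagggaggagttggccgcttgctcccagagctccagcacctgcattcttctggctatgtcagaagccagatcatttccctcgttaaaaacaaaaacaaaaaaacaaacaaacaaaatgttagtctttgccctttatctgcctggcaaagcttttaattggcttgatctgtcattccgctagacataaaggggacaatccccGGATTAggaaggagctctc
TAATCC was found in the 250 bases of 23 of the 178 members higher in Cd73P by 4-fold that had an entry in the table (12.9%), of 273 such genes outside small RNAs and shared symbols. It was found in 4.70% of 681 members higher in Cd73N by 4-fold, 5.56% of 5126 members and 6.38% of all 27018 genes in the table. Besides those printed, genes with a match included Pitpnm3, Rpgrip1, Casz1, Nxnl2, Abca4 and Crx itself. AAGGTCA was found in 6.18%, 2.64%, 2.63% and 4.05% of the same groups, in the same order. TGCTGA was found in 11.8%, 13.1%, 11.8% and 15.8%. A higher share in the Cd73P group was therefore seen for TAATCC and AAGGTCA and not for TGCTGA. A match is a run of letters, not a bound site, and Gnat2 carries 1 as well. Gnat1 and Rcvrn had no entry in the table.

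Cone genes were the mirror of rod genes. All 10 members of the cone phototransduction list were higher in Cd73N at 1.5-fold, with a median log2 ratio of -3.82, and 9 of them by 4-fold. The short-wave opsin gene Opn1sw was at 552 FPKM in Cd73N and 38.0 in Cd73P, and the middle-wave opsin gene Opn1mw at 339 and 17.7. Pde6h, the inhibitory subunit of the cone phosphodiesterase, was at 1237 FPKM in Cd73N, among the 10 highest members there, and at 70.8 in Cd73P. What remained in Cd73P was 5.22% to 37.6% of the Cd73N level, with a median of 6.29%. The upper end was Cngb3, a channel subunit, at 13.2 and 4.98 FPKM.

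Set side by side, related genes for the same step exchanged places between the fractions. Gnat1 made up 11% of Gnat1 plus Gnat2 in Cd73N and 99.1% in Cd73P. Cnga1 made up 19.9% of Cnga1 plus Cnga3 in Cd73N and 99.8% in Cd73P, and Pde6b 10.8% and 99.4% of Pde6b plus Pde6c. Gngt1 went from 19.8% to 95.0% of its sum with Gngt2, and Pde6g from 28.6% to 97.5% of its sum with Pde6h. Arrestins were the exception, since Sag already made up 67.6% of Sag plus Arr3 in Cd73N, against 99.7% in Cd73P. Exchange was also seen outside phototransduction. Cplx4, a complexin of photoreceptor ribbons, went from 13.3% of Cplx4 plus Cplx3 in Cd73N to 78.1% in Cd73P, and Rdh12 from 39.3% to 92.1% of Rdh12 plus Rdh10. Of the homeodomain pair Otx2 and Crx, Otx2 made up 60.5% in Cd73N and 24.0% in Cd73P. Glycolytic pairs kept the same leading gene in both fractions. Aldoa was at 92.6% and 94.4% of aldolase Aldoa plus Aldoc, and Eno1 at 69.3% and 66.9% of enolase Eno1 plus Eno2. Ldha went from 89.3% to 96.4% of Ldha plus Ldhb, and Hk2 from 9.59% to 3.14% of Hk2 plus Hk1. These shares are ratios within a library and do not depend on scaling.

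**Figure D2:**
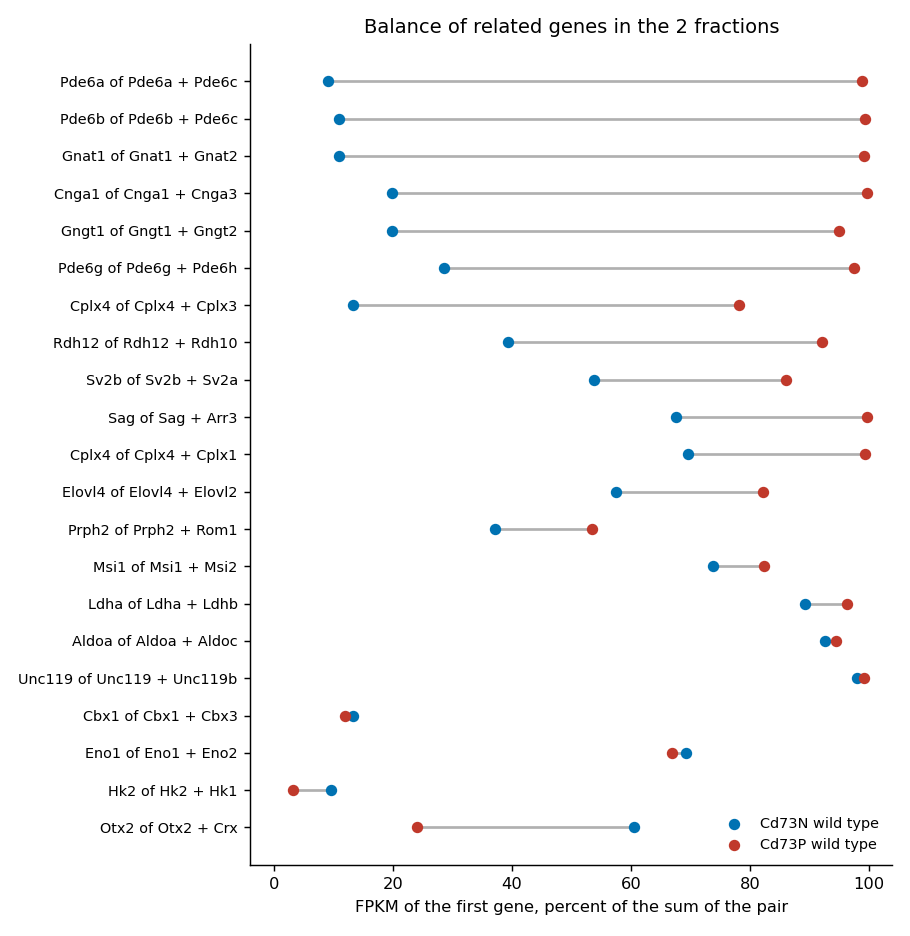
Share of the first gene in the FPKM sum of a pair of related genes (x axis, percent), in Cd73N (blue) and Cd73P (red), for pairs in which both genes were members. The first gene of the phototransduction pairs lies between 9.09% and 67.6% in Cd73N and between 95.0% and 99.8% in Cd73P.

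Genes of the outer segment were the second group on the Cd73P side. Of 16 members, 15 were higher in Cd73P at 1.5-fold and none in Cd73N, with a median log2 ratio of 2.89. Rp1, which organises disc stacking along the axoneme, was at 12.9 FPKM in Cd73N and 670 in Cd73P. Prph2, a tetraspanin of the disc rim, was at 177 and 2522 FPKM and its partner Rom1 at 299.7 and 2196, so that Prph2 exceeded Rom1 in Cd73P and not in Cd73N. Prom1, which encodes a membrane protein of nascent discs, was at 35.7 and 491 FPKM. Abca4, the lipid and retinoid transporter of the disc rim, was at 19.7 and 149 FPKM. The lowest of the 16 was Rd3, an inhibitor of guanylate cyclase, at 39.2 and 52.3 FPKM, a log2 ratio of 0.41.

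The cilium showed smaller ratios in the same direction. Of 30 members for intraflagellar transport and the BBSome, the carriers of cargo along the cilium, 22 were higher in Cd73P and 3 in Cd73N, with a median of 1.23. Of the 30, 12 passed through Cd73P alone and 2 through Cd73N alone. Over all 39 listed genes the counts were 26 and 3 and the median 1.06. The highest members were BBSome subunits, Bbs5 (8.78 and 86.8 FPKM in Cd73N and Cd73P) and Bbs9 (16.6 and 85.5), together with Bbs7 at a log2 ratio of 2.29. The 3 on the Cd73N side were Ift46, Kifap3, a subunit of the kinesin motor, and Ift20 (80.0 and 39.5 FPKM), with log2 ratios of -0.73, -0.91 and -1.0. None of these 3 stayed on the Cd73N side at 1.5-fold once ratios were centred on the median of all members. Of 23 members for the connecting cilium and transition zone, 14 were higher in Cd73P and 1 in Cd73N, with a median of 0.81. Of the 23, 11 passed through Cd73P alone and 0 through Cd73N alone. Over all 30 listed genes the counts were 17 and 2 and the median 0.72. Rpgrip1, which anchors the cilium protein RPGR, was at 14 and 179 FPKM, and Rpgr itself at 5.15 and 13.6. Cep290, of the transition zone, was at 5.87 and 26.6 FPKM. The member on the other side was the centrin gene Cetn3, at 122 and 76.5 FPKM.

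Among 12 members for photoreceptor transcription factors, 9 were higher in Cd73P and 1 in Cd73N. Beside Nrl, Nr2e3 and Esrrb, Samd7, a silencer of non-rod genes, was at 8.06 FPKM in Cd73N and 266 in Cd73P. Crx, the homeodomain factor of all photoreceptors, was at 254 and 1038 FPKM, Neurod1 at 102 and 440, and Rorb at 15.3 and 64.4, all near a log2 ratio of 2. Factors shared with other cells were about level: Otx2, which also acts in bipolar cells, was at 388 and 328 FPKM, and Thrb, a thyroid hormone receptor needed for one cone class, at 13.7 and 18. Nr1d1, a clock repressor, was the 1 member higher in Cd73N, at 70.8 and 33.8 FPKM. With ratios centred on the median of all members, 10 members were higher in Cd73P and none in Cd73N. Over all 15 listed rows, uncentred, 9 were higher in Cd73P and 4 in Cd73N.

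The retinoid cycle, which regenerates the visual chromophore between photoreceptors, Müller glia and pigment epithelium, was divided. Its 11 members had a median of 0.15 (-0.04 without the 10 FPKM minimum), with 5 higher in Cd73P and 2 in Cd73N. The retinol dehydrogenase gene Rdh12 was at 27.6 FPKM in Cd73N and 412 in Cd73P, Dhrs3 at 3.27 and 66.7, and Rbp3, the carrier in the space around outer segments, at 311 and 933. On the other side was Rlbp1, an intracellular carrier of Müller glia, at 115 and 6.54 FPKM.

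Lipid and redox genes held large ratios in both directions. For synthesis of very long chain fatty acids, 5 of 16 members were higher in Cd73P and 10 in Cd73N, with a median of -1.23. Elovl4, the elongase for the longest chains of disc membranes, was at 62.7 and 351 FPKM in Cd73N and Cd73P, and Agpat3, an acyltransferase, at 47.4 and 241. Elovl5 stood at the other end with 23.6 and 1.1 FPKM, and the desaturase Scd2 was at 126 and 22.9. Among 23 antioxidant members, 3 (13%) were higher in Cd73P and 17 (73.9%) in Cd73N. The 3 were Nxnl1 (7.59 and 106 FPKM) and Nxnl2 (24.4 and 227 FPKM), which encode rod-derived cone viability factors, and Gpx4 (305 and 511 FPKM), which reduces lipid peroxides. Glutathione S-transferase Gstm5 was at 128 and 8.82 FPKM.

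Synaptic genes leaned different ways by type of synapse, to an extent that depended on the minimum. Of 19 ribbon synapse members, 9 were higher in Cd73P and 4 in Cd73N, with a median of 0.48. Egflam, encoding pikachurin of the photoreceptor synapse, was at 13.3 FPKM in Cd73N and 88.3 in Cd73P, Cplx4 at 62.0 and 268, and the calcium channel subunits Cacnb2 at 9.16 and 40.8 and Cacna1f at 17.5 and 35.3. The 4 on the Cd73N side were Dag1, Atp2b1, Rab3a and Cplx3, the last at 405 and 75 FPKM. Over all 24 listed ribbon genes the counts were 9 and 5 and the median 0.35. Of 17 conventional synapse members, 3 were higher in Cd73P and 11 in Cd73N, with a median of -1.93. Of the 17, 8 passed through Cd73N alone, and over all 34 listed genes the counts were 3 and 21 and the median -1.09. With a minimum of 30 FPKM the medians were 0.65 for ribbon and -0.66 for conventional synapse genes. The latter was near the -0.48 of all members at 10 FPKM. Syt4, a synaptotagmin, was at 72.5 and 2.94 FPKM, Syn1, synapsin, at 32.2 and 1.87, and Cplx1 at 27.1 and 1.49. The 3 were Slc6a9 (6.46 and 24.1 FPKM), Dlg4 (128 and 199.8 FPKM) and Cplx2 (31.5 and 48.6 FPKM), of which Cplx2 took the opposite direction between the libraries labelled Ezh2-cKO. Vesicle genes used at both kinds of synapse, Snap25 and Syp, lay within 1.5-fold, at log2 ratios of 0.30 and -0.17.

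Most channel genes were low in both libraries. Of 95 potassium channel genes 53 were below 1 FPKM in both, and over all of them 3 were higher in Cd73P at 1.5-fold and 40 in Cd73N, with a median of -0.40. Of these, 20 were members, 15 of them through Cd73N alone and 2 through Cd73P alone, and 17 members were higher in Cd73N. The other 3 were higher in Cd73P by 4-fold, among them the silent subunit gene Kcnv2 (9.90 and 184 FPKM) and the inward rectifier Kcnj14 (5.64 and 30 FPKM). Kcng4, another silent subunit, was at 64.4 FPKM in Cd73N and 1.1 in Cd73P. Of 9 calcium channel members, 2 were higher in Cd73P, the ribbon subunits named above, and 6 in Cd73N, with a median of -2.25. Of the 9, 5 passed through Cd73N alone. Over all 26 calcium channel genes the median was -1.01, with 2 higher in Cd73P at 1.5-fold and 18 in Cd73N. Cacna1h, a T-type channel, was at 25.2 and 1.07 FPKM. With a minimum of 30 FPKM the median of the calcium channels turned positive (0.39), since few members were left. Of 27 glutamate receptor genes 6 were members, all of them through Cd73N alone, so that their direction was fixed by the minimum. Over the 27 genes the median was -0.40, with 2 higher in Cd73P at 1.5-fold, 11 in Cd73N and 13 below 1 FPKM in both libraries. Of 24 GABA and glycine receptor genes 10 were members, 9 of them through Cd73N alone. Over the 24 genes the median was -1.33, with none higher in Cd73P at 1.5-fold, 16 in Cd73N and 11 below 1 FPKM in both libraries. Gabrr1, a receptor subunit of bipolar cells, was at 199 and 8.03 FPKM, and Grik1, a kainate receptor of OFF bipolar cells, at 99.0 and 3.43.

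**Figure D3:**
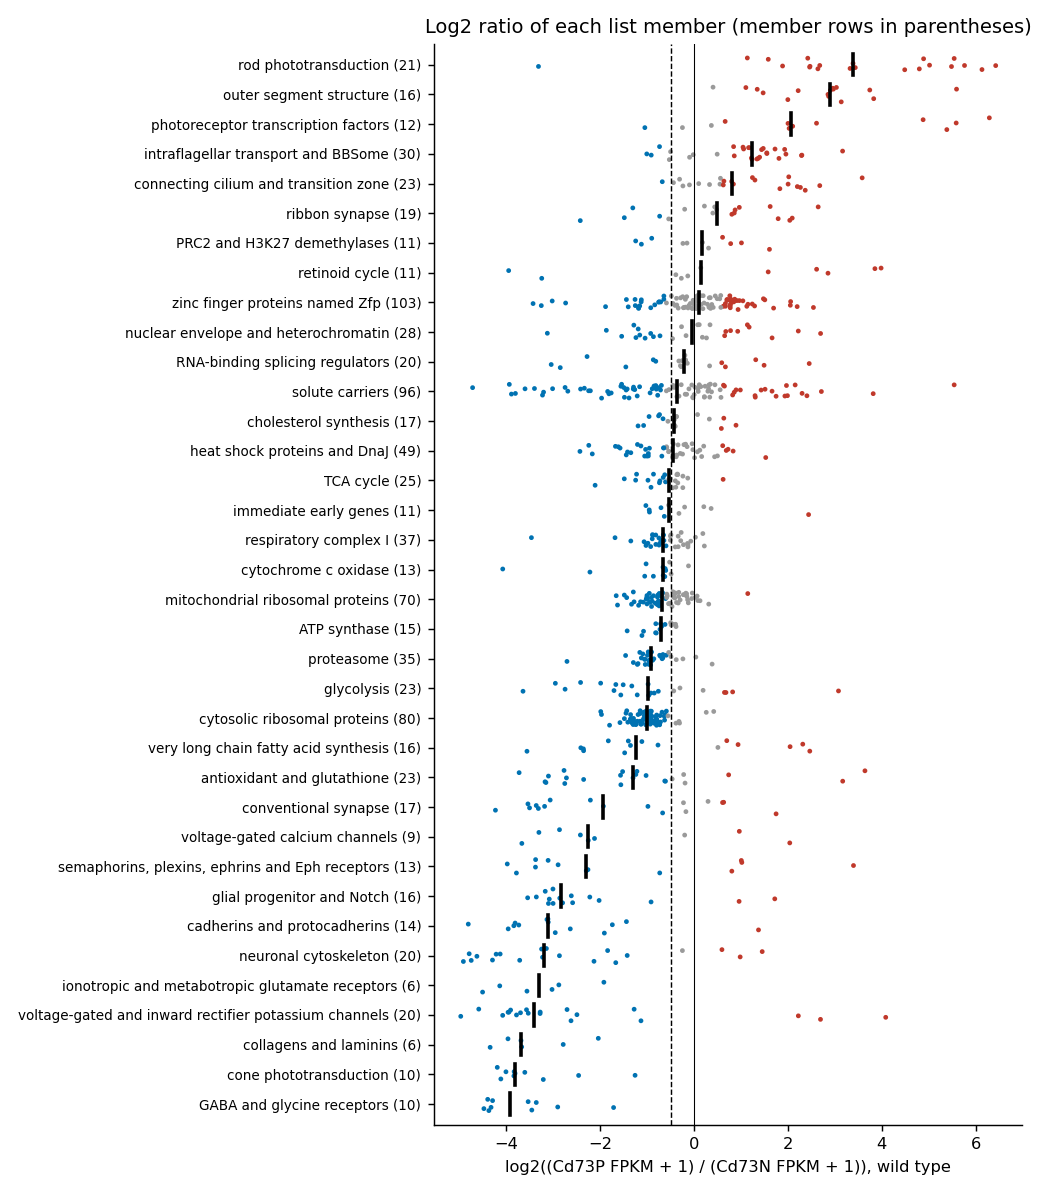
Log2 ratio of Cd73P over Cd73N (x axis) for the member rows of function lists with at least 5 of them, ordered by the list median (black bar). Red and blue points are past 1.5-fold toward Cd73P and Cd73N, the solid line marks 0 and the dashed line the median of all members, -0.48. The lists run from 3.39 for rod phototransduction to -3.91 for GABA and glycine receptors. Of the 10 members of the latter, 9 passed the minimum through Cd73N alone, and over all 24 genes the median was -1.33.

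Glycolysis leaned toward Cd73N. Of 23 members, 16 (69.6%) were higher in Cd73N and 4 (17.4%) in Cd73P, the latter close to the 17.3% of all members, and the median was -0.97. Pfkfb2, which makes the activator of phosphofructokinase, was at 11.9 FPKM in Cd73N and 108 in Cd73P. Ldha, lactate dehydrogenase A, was at 560 and 900 FPKM, while Ldhb was at 67.1 and 34. The glucose transporter Slc2a1 (49.3 and 78.1 FPKM) and the lactate transporter Slc16a1 (21.8 and 39.4 FPKM) were the other 2, and both went the opposite way between the libraries labelled Ezh2-cKO. Tpi1, triose phosphate isomerase, was at 595 and 46.9 FPKM, the largest ratio toward Cd73N in the pathway, and the phosphofructokinase Pfkm at 59.6 and 6.86. Hexokinase Hk1 was about level, at 114 and 131 FPKM. Enzymes of the citric acid cycle had a median of -0.53, near that of all members, with 1 of 25 higher in Cd73P and 12 (48%) in Cd73N.

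The basic machinery of translation and respiration lay slightly below the median of all members. Of 80 cytosolic ribosomal protein rows, 74 (92.5%) were higher in Cd73N and none in Cd73P, with a median of -0.99. The spread was small: the quartiles were -1.19 and -0.82. With ratios centred on the median of all members, 30 were higher in Cd73N and 2 in Cd73P. The extremes were Rps23 (19.9 and 4.28 FPKM) and Rps27 (14.7 and 20.1 FPKM), and many of these genes have processed copies in the genome, so that single values are uncertain. Mitochondrial ribosomal proteins (median -0.67, 70 members), complex I (-0.65, 37), cytochrome c oxidase (-0.65, 13), ATP synthase (-0.71, 15) and the proteasome (-0.92, 35) also had medians below that of all members. Their shares higher in Cd73N at 1.5-fold differed, from 52.9% of mitochondrial ribosomal proteins and 56.8% of complex I, against 46% of all members, to 82.9% of the proteasome. Centred on the median of all members, 10 mitochondrial ribosomal proteins, 3 members of complex I and 8 of the proteasome were higher in Cd73N. Together these 5 lists had 1 member higher in Cd73P, Mrpl49, at 37.8 and 84.9 FPKM. Alternative subunits stood apart from their complexes. Ndufa4l2 was at 41.5 and 2.87 FPKM, Cox4i2 at 40.8 and 1.49, and the immunoproteasome subunit Psmb10 at 12.7 and 1.1. Their constitutive counterparts Ndufa4 (966 and 1103 FPKM) and Cox4i1 (805 and 512 FPKM) were close to or above the median.

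At the minimum of 10 FPKM, chromatin genes had a median above that of all members. Of 28 nuclear envelope and heterochromatin members, 9 (32.1%) were higher in Cd73P and 11 (39.3%) in Cd73N. The median of -0.04 lay 0.44 above that of all members, turned to 0.45 when the median of all members was set to 0 and to 0.32 with equal FPKM sums, and was -0.27 over all listed rows. With a minimum of 30 FPKM it was -0.72, below the median of -0.48 of all members at 10 FPKM. With ratios centred on the median of all members, 13 were higher in Cd73P and 7 in Cd73N. Rods of nocturnal mammals are known for gathering their heterochromatin in the centre of the nucleus. Suv39h2, an H3K9 methyltransferase, was at 1.29 FPKM in Cd73N and 13.9 in Cd73P, while Suv39h1 was at 21.7 and 19.3. Among nucleosome-binding proteins Hmgn2 (283 and 901 FPKM) and Hmgn1 (376 and 852 FPKM) were higher in Cd73P, and Hmgn3 (280 and 31.3 FPKM) was higher in Cd73N. The linker proteins of the nuclear envelope divided too, with Sun1 at 15.4 and 35.1 FPKM and Sun2 at 11.4 and 3.26. The heterochromatin proteins Cbx1, Cbx3 and Cbx5 were all higher in Cd73N, at log2 ratios of -0.86, -0.72 and -1.18.

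For Polycomb complex PRC2 and H3K27 demethylases, 4 of 11 members were higher in Cd73P and 3 in Cd73N, with a median of 0.18 that became -0.36 with a minimum of 30 FPKM. Centred on the median of all members, 6 were higher in Cd73P and 2 in Cd73N. Jarid2, an accessory subunit, was at 16.7 FPKM in Cd73N and 52.9 in Cd73P. The methyltransferase gene Ezh2 was at 14.1 and 5.38 FPKM, and its homologue Ezh1 at 7.34 and 11.7. Between the libraries labelled Ezh2-cKO, Ezh2 was at 15.9 FPKM in Cd73N and 3.45 in Cd73P, so that its level over the whole gene was not lower in the Cd73N library with that label. Of 20 RNA-binding splicing regulators, 5 were higher in Cd73P and 6 in Cd73N, with a median of -0.22 that turned to 0.27 when the median of all members was set to 0 and to 0.14 with equal FPKM sums. Mbnl1 (9.56 and 56.9 FPKM), Mbnl2 (12.8 and 37.9 FPKM) and Msi1, the Musashi protein of photoreceptor exons (95.0 and 238 FPKM), were higher in Cd73P. Khdrbs3 (252 and 29.8 FPKM) and Nova1 (11.4 and 0.728 FPKM) were higher in Cd73N.

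The Cd73N fraction carried the markers of the inner retina, of cones and of vessels and blood. All 15 bipolar markers were members, and 14 were higher in Cd73N, 13 of them by 4-fold, with a median of -4.13. Pcp2 was at 653 FPKM in Cd73N and 82.9 in Cd73P, Isl1, a LIM homeodomain factor, at 217 and 12.3, and Grm6, the glutamate receptor of ON bipolar cells, at 120 and 5.91. Prkca, used as a rod bipolar marker, was the exception at 28.5 and 26.8 FPKM. Of 9 Müller glia members, 8 were higher in Cd73N, with a median of -3.24. Of the 9, 5 passed through Cd73N alone. Over all 12 Müller markers, 11 were higher in Cd73N at 1.5-fold and the median was -3.08. The glutamine synthetase gene Glul was at 257 and 32.8 FPKM, and Car2, a carbonic anhydrase, was the 1 within 1.5-fold. For horizontal cells, Prox1 was at 92.7 and 4.33 FPKM, but 5 of 7 markers were below 1 FPKM in both libraries. Of 12 amacrine markers 3 were members, and the glycine transporter Slc6a9 was higher in Cd73P. Over all 12 amacrine markers the median was -0.23, with 1 higher in Cd73P at 1.5-fold, 4 in Cd73N and 6 below 1 FPKM in both libraries. None of 12 ganglion cell markers was a member, and the highest of them, Thy1, was at 6.52 FPKM in Cd73N and 0.611 in Cd73P. Over all listed rows of status OK, the bipolar, cone and Müller markers summed to 3145, 3808 and 1442 FPKM in Cd73N. Some genes that define amacrine cells, such as Gad1 (0.798 and 1.40 FPKM), were near 0.

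Blood and vessel genes were also in Cd73N. The 7 red blood cell member rows summed to 3206 FPKM in Cd73N and 24.7 in Cd73P, with Alas2, the erythroid enzyme of haem synthesis, at 15.0 and 0.541. All 7 passed the minimum through Cd73N alone. Over all 8 listed rows, 7 were higher in Cd73N at 1.5-fold and the median was -5.73. Alpha globin genes Hba-a1 and Hba-a2 have 2 rows each and are uncertain for the same reason as the beta globins. The 5 vascular and 5 microglia members all passed the minimum through Cd73N alone. Over all 12 vascular markers the median was -1.59, with 8 higher in Cd73N at 1.5-fold and 1 in Cd73P, and over all 12 microglia markers it was -1.49, with 11 higher in Cd73N and none in Cd73P. Of 10 pigment epithelium markers 3 were members, and they differed in direction. Ttr (6.30 and 32.7 FPKM) and Dct (0.880 and 11.3 FPKM) were higher in Cd73P, and Rrh, the peropsin gene, was higher in Cd73N (12.4 and 0.987 FPKM). Over all 10, 7 of which were below 1 FPKM in Cd73N, 7 were higher in Cd73P at 1.5-fold and 1 in Cd73N, and the sums were 23.8 FPKM in Cd73N and 63.6 in Cd73P. Rpe65, the retinoid isomerase that defines this epithelium, was at 0.895 and 2.66. The part of pigment epithelium in the Cd73P values was not tested. Of astrocyte and lens markers none reached 10 FPKM.

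Structural genes of neurons and glia that were members had large ratios toward Cd73N. Most cadherin, collagen and Notch pathway members passed through Cd73N alone, so that their direction was fixed by the minimum. Of 20 neuronal cytoskeleton members, 16 were higher in Cd73N and 3 in Cd73P, with a median of -3.18 (-2.13 over all 27 listed). Stmn1, a microtubule destabiliser, was at 833 FPKM in Cd73N and 30.2 in Cd73P, Tubb2a, a neuronal beta tubulin, at 376 and 11.6, and Mapt, tau, at 54.2 and 1.99. The 3 on the Cd73P side were Mtap1b (27.3 and 76.6 FPKM), Mtap2 (76.1 and 152 FPKM) and the ankyrin gene Ank2 (27.2 and 41.6 FPKM), so that the microtubule-associated proteins parted. Of 16 glial progenitor and Notch pathway members, 14 were higher in Cd73N, 13 of them by 4-fold. The Notch effector Hes1 was at 16.2 and 0.925 FPKM and Nfia at 14.5 and 0.334. The 2 others were the Notch ligand Jag1 (3.06 and 12.4 FPKM) and the homeodomain gene Rax (39.4 and 77.7 FPKM). Of 14 cadherin members 13 were higher in Cd73N, with Cdh8 at 46.2 and 0.693 FPKM. The exception was Pcdh15, a protocadherin known from hair cells and photoreceptors, at 10.8 and 29.6 FPKM. Of the cadherin members 11 passed through Cd73N alone, as did 14 of the Notch pathway members. Over all 95 cadherins the median was -1.24, with 1 higher in Cd73P at 1.5-fold and 75 in Cd73N. Over all 27 Notch pathway genes it was -2.26, with 2 higher in Cd73P and 23 in Cd73N. The 6 collagen members, among them Col9a1 (49.0 and 1.48 FPKM), all passed through Cd73N alone. Over all 54 collagen and laminin genes the median was -0.35, with 20 higher in Cd73N at 1.5-fold, 4 in Cd73P and 31 below 1 FPKM in both libraries.

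The highest genes of each library show the same division. Under the same exclusions, the 10 highest members of Cd73P were Pdc, Sag, Pde6g, Prph2, Rom1, Rcvrn, Gnat1, Ccdc72, H3f3b and Gngt1, of which 8 belong to the rod outer segment or its cascade. Those of Cd73N were Ubb, Gm1821, Ckb, Eef1a1, H3f3b, Beta-s, Pkm2, Pde6h, H3f3a and Rpl38. Ubb, ubiquitin, was at 2429 FPKM in Cd73N and 1395 in Cd73P, Ckb, brain creatine kinase, at 2257 and 640.0, and the elongation factor gene Eef1a1 at 2176 and 711. H3f3b, a histone H3.3 gene, was in both sets, at 2055 and 1818 FPKM. Apart from Beta-s and Pde6h, genes in common use by many cells led in Cd73N, and rod genes led in Cd73P.

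The libraries labelled Ezh2-cKO allow the same contrast in other animals. They are not a replicate, since the genotype differs, and they share no library with the wild-type pair. Over 7125 members outside small RNAs with status OK in all 4 libraries, the log2 ratios of the 2 pairs had a Pearson r of 0.96 and a Spearman coefficient of 0.95. This is a correlation across genes, which are not independent. Of 1179 such genes higher in Cd73P at 1.5-fold in wild type, 980 (83.1%) were also past 1.5-fold in that direction, and of 3306 higher in Cd73N, 2683 (81.2%) were. At 4-fold the shares were 225 of 275 (81.8%) toward Cd73P and 882 of 976 (90.4%) toward Cd73N. In all, 7 genes were past 1.5-fold in opposite directions. Of these, Krt18, an epithelial keratin, was at 63.0 FPKM in Cd73N and 19.1 in Cd73P in wild type, and at 73.2 and 122 FPKM in the libraries labelled Ezh2-cKO. In the other pair the median was 3.50 for rod phototransduction, against 3.39 in wild type. It was -5.35 against -3.82 for cone phototransduction and -4.85 against -4.13 for bipolar markers. For GABA and glycine receptors it was -4.08 against -3.91, but 9 of these 10 members passed the minimum through Cd73N alone. The order of the lists on the Cd73N side was not the same, and the place of that receptor list in it depends on the minimum. Whether any ratio differed between the genotypes was not tested.

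**Figure D4:**
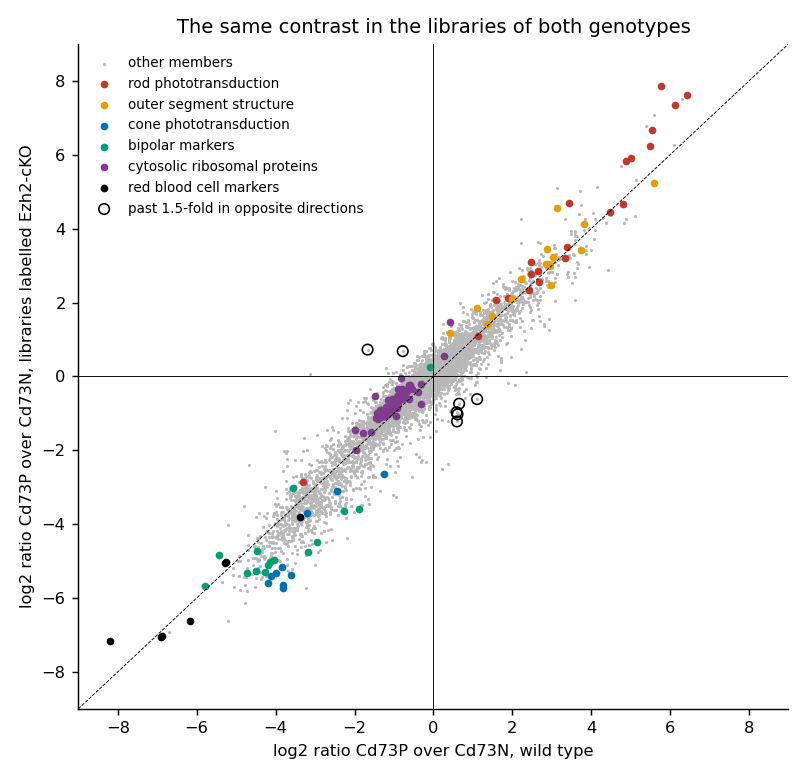
Log2 ratio of Cd73P over Cd73N in wild type (x axis) and between the libraries labelled Ezh2-cKO (y axis), with 1 point for each member with status OK in all 4 libraries. The dashed line marks equal ratios and open circles the 7 genes past 1.5-fold in opposite directions. Most points follow the dashed line, and rod phototransduction genes lie at the upper right and cone, bipolar and red blood cell genes at the lower left.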

How the data were processed

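Each library was 1 sample, grouped by the Cd73 status and genotype in the labels. Poly(A) RNA was fragmented, copied from random primers without a strand mark, amplified by PCR and read as single ends. Per the submitters' processing notes, tools were bcl2fastq 1.8.4, TopHat2 2.0.8b and Cufflinks 2.1.1 on build mm9. The deposited tables give FPKM, its lower and upper bound and a status for RefSeq genes, as the authors' Cufflinks run wrote them, and FPKM was used without further scaling. Total counts were not used here, so absolute depth is unknown. Listed starts count from 0 and are printed with 1 added.

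Rows were joined on gene and locus. A pseudocount of 1 FPKM was added before log2 ratios, which understates the change of low genes. The width of the bounds was taken as 4 SE. Thresholds were 1.5-fold, which the study used, and 4-fold. The fold counts are descriptions of 2 libraries. Gene lists (40 for functions, 13 for cell types) and related pairs were written by hand, and the members, lists and thresholds were chosen with earlier results of these data known. Genes were named as label checks, as the 12 largest ratios in each direction and the 10 highest levels in each library (single-row symbols outside small RNAs), as pair members, and as up to 4 extremes of a list. Further list members were named for their role after their values were seen. Some symbols of older annotation were matched by alias. Genes on several rows, with near-identical copies or overlapping others are uncertain. Some genes and lists that met these rules are not reported here. Promoter matches used the first table entry of each symbol. Alternatives were pseudocounts, scalings, FPKM minimums, row handling, bounds and a threshold of 2-fold. The scripts were tested on simulated data. Python 3.11.15, pandas 2.3.3, numpy 2.4.6, scipy 1.17.1 and matplotlib 3.10.9 were used.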

Additional observations from a re-analysis of the deposited data

Results flagged for a closer look

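The results given here took opposite signs in the 2 genotypes, where 1 library pair stands on each side, and the difference was not tested. Genes past 1.5-fold in both pairs come first, each with its log2 ratio of Cd73P over Cd73N in wild type and then between the libraries labelled Ezh2-cKO. Krt18 was at -1.67 and 0.72 and D16Ertd472e at -0.78 and 0.68. Leng8 was at 1.11 and -0.62, Slc2a1, a glucose transporter, at 0.65 and -0.74, and Slmap at 0.60 and -1.22. Cplx2, a complexin, was at 0.61 and -1.03.

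Of the other genes, the widest gap was that of Jun, an immediate early gene, at 0.37 in wild type and -2.38 between the libraries labelled Ezh2-cKO. The whole list of immediate early genes had medians of -0.54 and -2.32. Genes on the Cd73P side in wild type were Rax (0.96 and -0.0355), Slc16a1 (0.83 and -0.34) and Elovl2 (0.70 and -0.0332). Several genes of glycolysis and respiration were on the Cd73N side in wild type and on the Cd73P side in the other pair, namely Aldoa (-0.43 and 0.45), Pkm2 (-0.30 and 0.56), Mdh2 (-0.34 and 0.32), Atp5b (-0.49 and 0.0659), Cox6a1 (-0.48 and 0.0257) and Cox6c (-0.11 and 0.0419). The same order of signs was found for the synaptic genes Syp (-0.17 and 0.27) and Cacna2d4 (-0.20 and 0.45), and for Pcbp4 (-0.29 and 0.44), Prkca (-0.08 and 0.26), Otx2 (-0.24 and 0.0050) and H3f3b (-0.18 and 0.12). The median of the nuclear envelope and heterochromatin list was -0.04 in wild type and 0.19 in the other pair.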

How the results depend on the processing

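No paired analysis was possible because each group held 1 library. The 4 counts of members past a fold moved by less than 1.5 times when rows of a symbol were summed, small RNA symbols were left out, bounds had to be apart, a pseudocount of 0.1 was used or FPKM sums were made equal. Setting the median ratio to 0 gave 2109 members higher in Cd73P and 1994 higher in Cd73N at 1.5-fold, and 504 higher in Cd73P at 4-fold. A pseudocount of 5 gave 201 and 526 at 4-fold. A minimum of 1 FPKM gave 2028 and 5829 at 1.5-fold, no minimum 2073 and 6156, a minimum of 30 FPKM 594 and 1793 with 461 higher in Cd73N at 4-fold, and a threshold of 2-fold 829 and 2149. Of the 272 named genes, none past 1.5-fold changed sign under a pseudocount or scaling, and shares found again between the libraries labelled Ezh2-cKO stayed within 1.5 times under both pseudocounts, which for these shares were chosen after the data were seen.

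List medians moved beyond the 95% binomial interval of their order statistics as follows. With a pseudocount of 0.1 they were 6.32 for the rod label genes, -2.61 for amacrine, -2.27 for microglia, -3.40 for glial progenitor and Notch, -4.41 for collagens, -4.59 for GABA and glycine receptors and -3.38 for crystallins. With a pseudocount of 5 they were 5.51 for the rod label genes, -2.79 for Müller glia, -1.70 for glial progenitor and Notch, -2.10 for potassium channels and -2.07 for crystallins. With the median ratio set to 0 they were 6.62 for the rod label genes, -2.80 for Müller glia, 3.39 for the outer segment, 1.73 for intraflagellar transport, -0.0395 for the citric acid cycle, -0.49 for cytosolic and -0.19 for mitochondrial ribosomal proteins, -0.14 for complex I and for cytochrome c oxidase, -0.20 for ATP synthase, -0.42 for the proteasome, -2.61 for crystallins, 0.59 for Zfp genes, 0.11 for solute carriers and 0.0327 for heat shock proteins. With equal FPKM sums they were 6.49 for the rod label genes, 3.26 for the outer segment, 1.60 for intraflagellar transport, -0.17 for the citric acid cycle, -0.62 for cytosolic and -0.32 for mitochondrial ribosomal proteins, -0.28 for complex I and for cytochrome c oxidase, -0.33 for ATP synthase, -0.55 for the proteasome, -2.71 for crystallins, 0.46 for Zfp genes and -0.10 for heat shock proteins.

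Low genes pulled list medians toward 0. Without a minimum they were -0.26 for horizontal, -1.24 for cadherins, -0.35 for collagens, -0.40 for potassium channels and for glutamate receptors, -1.33 for GABA and glycine receptors and -0.0713 for crystallins. With a minimum of 1 FPKM they were -1.40 for cadherins, -1.73 for collagens, -1.96 for potassium channels and -1.08 for crystallins. With a minimum of 30 FPKM fewer members were left and medians changed sign, to 0.39 for calcium channels and 0.91 for semaphorins and Eph receptors, and that of Zfp genes was 0.39. Absolute depth is unknown, so no limit could be set for values listed at 0, and repeat sorts or animals could move any value here.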

Other observations

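Several further families were described by the same counts. Relative to the median of all members, that of Zfp genes was 0.59 higher, that of solute carriers 0.12, of cholesterol synthesis 0.07 and of heat shock proteins 0.04 higher. Of 103 zinc finger genes named Zfp, 32 were higher in Cd73P at 1.5-fold and 22 in Cd73N, with a median of 0.10. Once ratios were centred on the median of all members, 52 were higher in Cd73P and 15 in Cd73N. Zfp238, a repressor also known as Zbtb18, was at 16.6 FPKM in Cd73N and 79.9 in Cd73P, and Zfp57 at 15.6 and 0.548. Of 96 solute carriers, 21 (21.9%) were higher in Cd73P and 41 (42.7%) in Cd73N, near the 17.3% and 46% of all members. Their median of -0.37 turned to 0.11 when the median of all members was set to 0. Beside the exchanger Slc24a1, the sulphate transporter Slc26a2 was at 1.88 and 39.5 FPKM and the bicarbonate transporter Slc4a7 at 11.2 and 79.3. On the other side Slc24a3, a related exchanger, was at 109 and 3.20 FPKM. Of 49 heat shock protein members, 5 (10.2%) were higher in Cd73P and 20 (40.8%) in Cd73N. Their median of -0.45 turned to 0.03 when the median of all members was set to 0. The paralogues of HSP90 parted, with Hsp90aa1 at 300.02 and 536 FPKM and Hsp90ab1 at 598 and 126.

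Of 17 cholesterol synthesis rows, 3 (17.6%) were higher in Cd73P and 6 (35.3%) in Cd73N. Their median of -0.42 turned to 0.05 when the median of all members was set to 0. Of the 17, 8 passed through Cd73N alone and 2 through Cd73P alone. Over all 23 listed rows, 3 were higher in Cd73P and 8 in Cd73N, and the median was again -0.42. Srebf2, a regulator of the pathway, was at 12.9 and 5.12 FPKM. Of 13 semaphorin, plexin, ephrin and Eph receptor members, 4 were higher in Cd73P and 9 in Cd73N, with a median of -2.29 that became 0.91 with a minimum of 30 FPKM. Of the 13, 8 passed through Cd73N alone. Over all 51 listed genes the median was -1.38, with 4 higher in Cd73P at 1.5-fold and 38 in Cd73N. Plxna2, a semaphorin receptor, was at 2.33 and 34.1 FPKM and Epha7 at 44.3 and 2.31. The 1 crystallin member, Cryab, was at 26.1 and 2.42 FPKM. Of 11 immediate early genes, 1 (9.09%) was higher in Cd73P, Ier3 at 9.58 and 56.5 FPKM. In Cd73N 5 (45.5%) were higher, among them Fos at 53.3 and 25.7 FPKM, near the 46% of all members. The median of these 11 was -0.54, also near that of all members. Of 28 cell cycle genes 3 were members and none was higher in Cd73P, while Mki67, a marker of dividing cells, was at 0.606 and 0.0320 FPKM. Small RNA symbols, which poly(A) libraries capture poorly, made up 170 members, with 49 higher in Cd73P and 30 in Cd73N at 4-fold. Of the 7136 other members, 277 and 978 were. Of single-row genes past 4-fold, 196 of 273 toward Cd73P and 788 of 970 toward Cd73N were on none of the lists.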
